A study of Homo sapiens with 2 samples.

Results

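The transcripts described here are those of the ZNF genes, human genes whose symbol begins with ZNF and a number. They were taken as every array probe set annotated with exactly 1 gene symbol of that form, and each gene is represented by the probe set with the highest mean log2 signal. This gave 235 genes out of the 11963 named by single-symbol probe sets. Of the 235, 226 are annotated as protein coding, 6 as transcribed pseudogenes and 3 as long noncoding RNAs, and 103 lie on chromosome 19. RNA came from H6c7 carrying an introduced K-ras oncogene and from parental H6c7, a human pancreatic duct epithelial line that grows without limit in culture, and was hybridised to Affymetrix U133A arrays. Each line is represented by 1 array, so no value below has a replicate error, no difference was tested, and an effect of the oncogene cannot be told apart from differences between cultures, RNA preparations or arrays. The labels name no vector control, and give neither the K-ras allele nor whether the carrying cells were pooled or cloned. The introduced gene itself is not analysed here.

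Most ZNF proteins bind DNA through tandem C2H2 zinc fingers, small folds held together by a zinc ion between cysteines and histidines. Many also carry a KRAB domain, which recruits the corepressor TRIM28 and, through it, histone methylation and heterochromatin proteins, and a large share of these repressors silences transposable elements. The KRAB genes arose by repeated duplication and stand in clusters, above all on chromosome 19. Some ZNF genes encode something else, such as adaptors, RNA-binding proteins or LIM proteins, and the symbol alone does not show which.

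A promoter window was available for 196 of the 235 genes, from 250 bases before to 50 bases after the annotated start (RefSeq, GRCh38.p14). Among 7 patterns searched, the ETS core had the widest gap in share between ZNF and other windows. CCGGAAG, looked for on both strands, was present in 79 of the 196 ZNF windows (40.3%), against 14.7% of 9366 windows of the other genes on the array and 10.7% of all 27305 RefSeq windows. Its middle lay within 100 bases of the start in 84.6% of the 91 ZNF matches and in 71.8% of the 1698 matches of other array genes. Among chromosome 19 ZNF genes 47.2% of 89 windows held it, and among ZNF genes elsewhere 34.6% of 107. Windows of paralogs descend from common ancestors and are not independent of each other. The 4 windows below belong to the ZNF genes with the largest differences above the signal floor on both arrays, the highest ratios being those of ZNF580 and ZNF408 and the lowest those of ZNF146 and ZNF24. Capitals mark matches to the ETS core CCGGAAG, the NRF1 pattern (GCGCA, any base, GCGC), the ZNF143 core ACTACAA, the cyclic AMP element TGACGTCA or the AP-1 pattern TGANTCA on either strand. None of these patterns contains another.
ZNF580 (chr19:55640752-55641051, plus strand): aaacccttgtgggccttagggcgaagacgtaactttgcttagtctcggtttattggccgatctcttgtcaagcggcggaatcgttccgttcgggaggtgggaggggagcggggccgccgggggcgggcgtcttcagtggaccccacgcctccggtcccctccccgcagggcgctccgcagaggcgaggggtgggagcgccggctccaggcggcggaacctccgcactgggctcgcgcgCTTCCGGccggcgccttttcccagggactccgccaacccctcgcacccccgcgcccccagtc
ZNF408 (chr11:46700781-46701080, plus strand): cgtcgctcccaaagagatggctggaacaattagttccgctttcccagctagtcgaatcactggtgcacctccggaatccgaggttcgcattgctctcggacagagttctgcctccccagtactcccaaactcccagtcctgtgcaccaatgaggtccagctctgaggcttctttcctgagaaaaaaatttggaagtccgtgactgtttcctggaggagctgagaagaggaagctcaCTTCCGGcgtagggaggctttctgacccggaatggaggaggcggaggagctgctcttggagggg
ZNF146 (chr19:36214856-36215155, plus strand): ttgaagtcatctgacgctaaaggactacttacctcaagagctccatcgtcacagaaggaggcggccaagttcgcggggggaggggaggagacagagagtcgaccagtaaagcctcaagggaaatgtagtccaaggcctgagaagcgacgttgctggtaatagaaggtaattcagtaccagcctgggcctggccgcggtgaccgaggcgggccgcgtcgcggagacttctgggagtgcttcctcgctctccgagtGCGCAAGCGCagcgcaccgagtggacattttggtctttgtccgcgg
ZNF24 (chr18:35344371-35344670, minus strand): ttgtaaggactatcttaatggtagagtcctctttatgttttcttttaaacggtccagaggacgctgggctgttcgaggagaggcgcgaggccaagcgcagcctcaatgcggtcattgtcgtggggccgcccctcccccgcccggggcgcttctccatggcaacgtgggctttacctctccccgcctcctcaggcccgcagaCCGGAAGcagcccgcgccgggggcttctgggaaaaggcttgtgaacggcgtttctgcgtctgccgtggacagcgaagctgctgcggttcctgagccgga
The ETS core began 12 bases before the start in ZNF580 and 14 bases before it in ZNF408, on the minus strand in both, and 49 bases before it in ZNF24. The window of ZNF146 held no ETS core and had an NRF1 match just after the start. So genes at both ends of the range of ratios carried the ETS core. Of the genes at least 2-fold higher in the K-ras line, 4 of 8 with a window held it, and of those at least 2-fold lower, 4 of 10. The median log2 ratio was 0.08 over 25 ZNF genes with the core and 0.07 over 41 without, all above the floor on both arrays. The other patterns lay closer to their share among other array genes. NRF1 matched 13.3% of ZNF windows against 9.40% of the others, ZNF143 7.65% against 3.19%, the cyclic AMP element 4.59% against 3.03% and AP-1 5.10% against 5.43%. The short GC box GGGCGG matched 60.7% against 63.1%, and CCAAT 45.9% against 37.1%.

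ZNF transcripts gave low signals on these arrays. On the K-ras array 97 of the 235 genes (41.3%) were above the array's median, a signal of 46.9, and on the parental array 108 (46.0%) were above its median of 43.9. Over all 11963 genes the shares were 58.2% and 57.6%. The median ZNF signal was 32.1 on the K-ras array and 39.1 on the parental array, against 64.4 and 63.4 over all genes. Taking the brightest probe set per gene can raise genes that have several. ZNF genes had 304 single-symbol probe sets for 235 genes, against 19065 for all 11963 genes. The part of this rule in the gap was not tested. Of the 235, 80 genes were above the median on both arrays, 17 on the K-ras array alone, 28 on the parental array alone and 110 on neither. No ZNF pseudogene was above the median on the K-ras array, and 2 of 6 were on the parental array. For ratios, the higher of the array medians, 46.9, was used as a floor on both arrays. A gene under it on both arrays was called not measured. Where 1 array alone was under it, the fold was taken against the floor and is a lower limit. By that rule 77 ZNF genes were above the floor on both arrays, 20 on the K-ras array alone and 26 on the parental array alone, and 112 were not measured. Of 7693 measured genes in all, 972 were above the floor on the K-ras array alone and 725 on the parental array alone, so the balance of the ZNF limits, called bounds below, ran the other way.

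**Figure D1:**
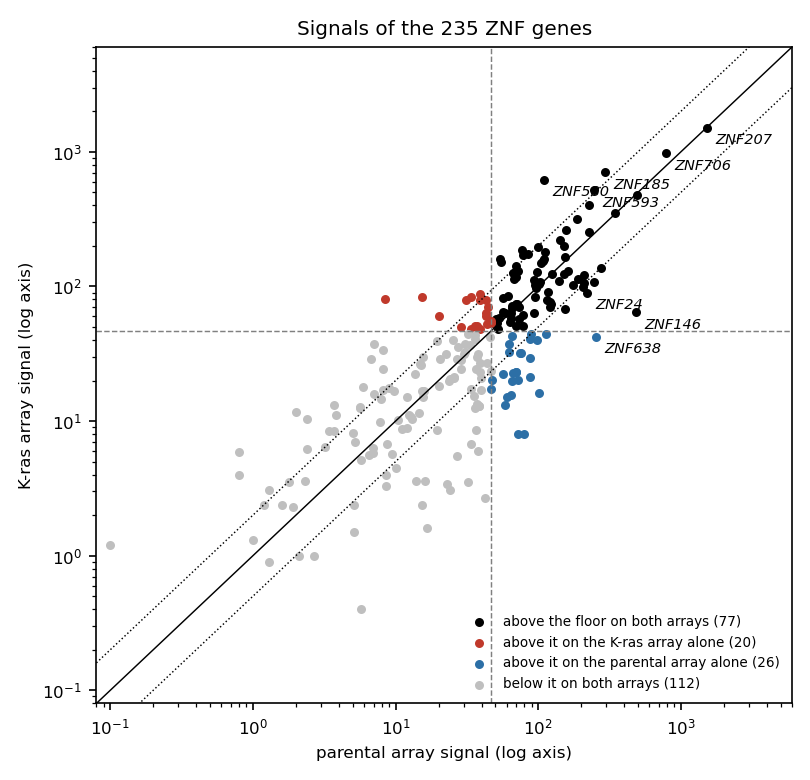
Signals of the 235 ZNF genes on the K-ras array (vertical) and the parental array (horizontal), both on log axes. Each point is 1 gene, dashed lines are the floor of 46.9, the solid line is equality and dotted lines are 2-fold. Most points lie below the floor on at least 1 array, and ZNF580 and ZNF146 stand furthest from equality where both signals exceed it.

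Of the 123 measured ZNF genes, 9 were higher in the K-ras line by 2-fold or more and 10 were lower by as much. The shares were 7.32% and 8.13%, against backgrounds of 9.97% and 14.4% of all 7693 measured genes. Where both signals exceeded the floor, 9 of 77 (11.7%) were higher and 6 (7.79%) lower, with backgrounds of 11.1% and 13.4%. Ratios above 1 were found for 45 of the 77 (58.4%), with a background of 54.6%. At this floor the share of lower genes was below the background in both counts, and the share of higher genes was below it over measured genes and near it where both signals exceeded the floor. The order of the lower shares turned with a lower floor. With the 30th percentile as floor 16.6% of 175 measured ZNF genes were lower by 2-fold, against 14.4% of all measured genes, and with no floor 23.4% of the 235, against 1797 of all 11963 genes. The median log2 ratio of the 77 genes was 0.07, with quartiles of -0.35 and 0.55, beside 0.10 over the 5996 genes of any kind with both signals above it. Their log2 ratios had an SD of 0.79 between genes, against 0.92 over all genes, and 57.1% of them differed by less than 1.5-fold, against 51.1% of all genes. The balance between the directions moved with the scaling, over ZNF genes and over all genes alike. Scaled on 100 maintenance probe sets, which raised the median log2 ratio over all genes to 0.26, 13 ZNF genes were higher and 4 lower, beside 1093 higher and 844 lower of 7592 measured genes. After median centring 6 were higher and 12 lower, beside 627 higher and 1265 lower of 7768. The 100 maintenance probe sets include those of ZNF146 and CBX3, themselves 7.52-fold and 7.49-fold lower in the K-ras line.

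ZNF580, which encodes a short C2H2 protein, had the highest ratio. Its signal was 621 on the K-ras array and 110 on the parental array, a 5.63-fold difference from its only probe set. ZNF580 was the one ZNF gene at least 3-fold higher. ZNF408, linked to inherited retinal vessel disease, had signals of 159 on the K-ras array and 54.2 on the parental array (2.94-fold higher), but its probe set is of the _x_at class, which can pick up related transcripts, and the value is uncertain. ZNF787 followed with 153 on the K-ras array and 55.1 on the parental array (2.78-fold higher). The parental signals of ZNF408 and ZNF787 were just above the floor, so their ratios are close to bounds.

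ZNF592, whose product is found in a complex with ZNF687 and the chromatin reader ZMYND8, had signals of 188 in the K-ras line and 77.2 in the parental line, a log2 ratio of 1.28. A second probe set gave 0.75, the same direction under 2-fold. ZNF133, a KRAB repressor, had signals of 171 in the K-ras line and 78.3 in the parental line, with log2 ratios of 1.12 and 1.11 from its 2 probe sets. It was the one higher gene past 2-fold in more than 1 probe set. ZNF710 had signals of 173 in the K-ras line and 84.9 in the parental line, and log2 ratios of 1.03 and 0.91 from its 2 probe sets. ZNF8, another KRAB gene, was at 141 in the K-ras line and 69.7 in the parental line, 2.02-fold higher and so barely past the threshold.

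The remaining higher genes are not typical transcription factors. ZNF185, a LIM-domain protein of the actin cytoskeleton, had 704 in the K-ras line and 293 in the parental line, 2.41-fold higher. ZNF593, the human counterpart of a yeast factor that accompanies large ribosomal subunits out of the nucleus, had 517 in the K-ras line and 245 in the parental line, 2.11-fold higher. Each of them has 1 probe set, well above the floor on both arrays.

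ZNF146 had the lowest ratio. It encodes a protein made almost wholly of zinc fingers, with no KRAB domain, and its overexpression has been described in pancreatic and colorectal carcinoma. Its signal was 64.4 on the K-ras array and 484 on the parental array, 7.52-fold lower in the K-ras line, from a single probe set. ZNF638, which binds unintegrated retroviral DNA and brings the HUSH silencing complex to it, had 42.4 in the K-ras line, under the floor, and 255 in the parental line, at least 5.44-fold lower. Both of its probe sets are _x_at and therefore uncertain, and the second gave a bound at a log2 ratio of -2.31. ZNF146 and ZNF638 were the 2 ZNF genes at least 3-fold lower.

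ZNF24, a SCAN-domain factor known to repress the VEGFA promoter, had signals of 89.9 in the K-ras line and 220 in the parental line, 2.44-fold lower. Of the ZNF genes it alone had 3 probe sets over the floor on each array, and the others gave log2 ratios of -0.48 and -0.43, so its direction held in all of them and the 2-fold size in 1. ZNF106, an RNA-binding protein involved in splicing, had 108 in the K-ras line and 245 in the parental line, 2.26-fold lower. ZNF318, which in mouse B cells allows transcription to read through to the delta heavy chain, had 68.0 in the K-ras line and 153 in the parental line, 2.25-fold lower. A second ZNF318 probe set gave a bound at -0.14. ZNF544 (98.3 in the K-ras line, 205 in the parental line) and ZNF22 (138 in the K-ras line, 277 in the parental line) were 2.08-fold and 2.01-fold lower.

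The other lower genes were under the floor on the K-ras array alone. ZNF93, a KRAB repressor of LINE-1 elements, had 44.2 in the K-ras line and 113 in the parental line, at least 2.41-fold lower on an uncertain _x_at probe set. ZNF451, a SUMO ligase, had 16.1 in the K-ras line and 102 in the parental line, at least 2.17-fold lower. ZNF148, also known as ZBP-89, had 39.7 in the K-ras line and 97.9 in the parental line, at least 2.09-fold lower, with a second probe set bounded at -0.47. No ZNF gene passed 2-fold as a bound in the higher direction. The nearest was ZNF467, at 88.3 in the K-ras line and 39.3 in the parental line, at least 1.88-fold higher. The lowest parental signal among the higher bounds was that of ZNF821, with 80.2 in the K-ras line and 8.40 in the parental line, and its bound is 1.71-fold. Further bounds on the higher side were ZNF154 (83.8 in the K-ras line, 33.9 in the parental line), ZNF35 (78.8 in the K-ras line, 39.1 in the parental line) and ZNF79 (69.9 in the K-ras line, 44.1 in the parental line), at 1.79-fold, 1.68-fold and 1.49-fold. On the lower side, short of 2-fold, were ZNF26 (44.6 in the K-ras line, 89.1 in the parental line) and ZNF277 (21.3 in the K-ras line, 87.4 in the parental line), at 1.90-fold and 1.86-fold.

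Several well-known members differed little between the arrays. ZNF207, a spindle protein that loads the checkpoint factor BUB3, had the highest ZNF signals, 1514 in the K-ras line and 1521 in the parental line. Its second, _x_at probe set gave a log2 ratio of -0.29. ZNF706 had 979 in the K-ras line and 780 in the parental line, a log2 ratio of 0.33. The nucleolar protein ZNF330 had 476 in the K-ras line and 493 in the parental line, and log2 ratios of -0.05 and -0.51 from its 2 probe sets. ZNF274, which recruits the methyltransferase SETDB1 to the 3′ ends of ZNF genes, had 350 in the K-ras line and 344 in the parental line. ZNF217, a cofactor amplified in breast carcinoma, had 166 in the K-ras line and 153 in the parental line. ZNF384, a fusion partner in acute leukaemia, had 252 in the K-ras line and 225 in the parental line, and ZNF331 had 107 in the K-ras line and 103 in the parental line. ZNF692 had 124 in the K-ras line and 125 in the parental line, ZNF395 had 69.9 in the K-ras line and 73.4 in the parental line, and ZNF609 had 69.2 in the K-ras line and 65.5 in the parental line. All of these were under 1.5-fold on the probe set used. A second ZNF609 probe set had 65.2 in the K-ras line and 11.1 in the parental line, a bound at a log2 ratio of 0.48.

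ZNF143, an activator bound at many promoters, had signals of 57.4 in the K-ras line and 73.0 in the parental line, a log2 ratio of -0.35. ZNF281, linked to pluripotency and to epithelial-mesenchymal transition, had 76.5 in the K-ras line and 120 in the parental line (-0.65). ZNF473, a factor of histone mRNA 3′-end processing, was at -0.54 in the probe set used and at 0.25 in the other. ZNF335, a subunit of a histone H3 lysine methyltransferase complex, had 130 in the K-ras line and 71.9 in the parental line (0.85). ZNF419 had 405 in the K-ras line and 226 in the parental line, a log2 ratio of 0.85, and its second probe set passed 2-fold at 1.35. ZNF629 had 319 in the K-ras line and 186 in the parental line (0.77). ZNF91, the repressor of SVA elements, had 37.5 in the K-ras line, under the floor, and 62.5 in the parental line, at least 1.33-fold lower. ZNF292 (15.7 in the K-ras line, 64.5 in the parental line) and ZNF195 (23.2 in the K-ras line, 69.4 in the parental line) were also bounds on the lower side, with log2 ratios of -0.46 and -0.57.

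Of 40 array members picked for a role known in the field, 13 were below the floor on both arrays and have no ratio. They include ZNF10, the source of the KRAB domain used in engineered repressors (14.6 on the K-ras array and 7.90 on the parental array), ZNF750, a factor of keratinocyte differentiation (5.80 on the K-ras array and 6.90 on the parental array), and ZNF350, a partner of BRCA1 (2.40 on the K-ras array and 15.3 on the parental array). ZNF267 was at 2.70 on the K-ras array and 42.4 on the parental array, just under the floor there. The others are ZNF84, ZNF268, ZNF365, ZNF423, ZNF516, ZNF639, ZNF652, ZNF711 and ZNF804A. Signals of different probe sets are not on a common scale, so a low signal does not show that a transcript was rare.

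Repeat measurement within an array comes from genes with several probe sets and is technical. For 12 ZNF genes several probe sets exceeded the floor on both arrays. Within such a gene, the log2 ratios of its probe sets had a pooled SD of 0.43, against 0.46 over 1671 genes in all. The probe sets differed in sign in 4 of the 12 (33.3%), and in 440 of the 1671 (26.3%). These were ZNF783, with log2 ratios of 0.91 and -0.03, ZNF337 (-0.30 and 0.63), ZNF200 (-0.33 and 0.43) and ZNF473. None of the 4 passed 2-fold on the probe set used. Among the 19 genes past 2-fold, ZNF592, ZNF133, ZNF710, ZNF22, ZNF148, ZNF318, ZNF24 and ZNF638 have another measured probe set. In all 8 it went the same way, and in ZNF133 and ZNF638 it also passed 2-fold. ZNF93 and ZNF451 each have another probe set that was under the floor on both arrays and has no ratio. For ZNF93 it read 40.4 in the K-ras line and 36.7 in the parental line. For ZNF451 it read 17.2 in the K-ras line and 3.30 in the parental line. Neither was lower in the K-ras line.

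**Figure D2:**
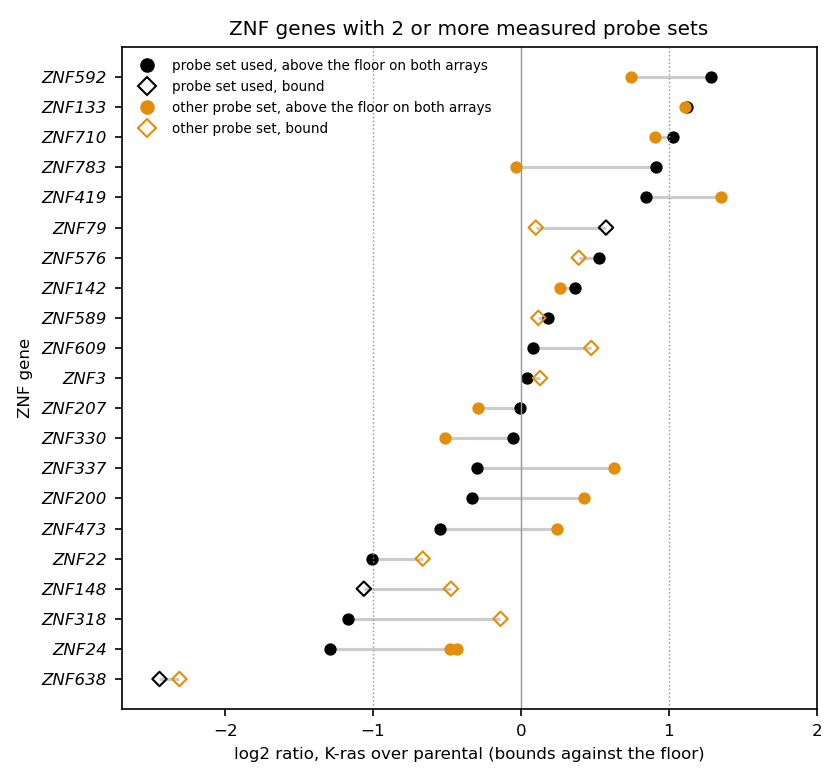
Log2 ratios, K-ras over parental, of every measured probe set of the ZNF genes with 2 or more of them, 1 gene per row. Black marks are the probe sets used, orange marks the others, circles are above the floor on both arrays and open diamonds are bounds. ZNF133 and ZNF638 agree closely between probe sets, while ZNF783 and ZNF337 span 0.

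The chromosome 19 ZNF genes differed from their chromosome. Over 29 of them above the floor on both arrays the median log2 ratio was 0.05, with quartiles of -0.36 and 0.53. Over 373 other genes of chromosome 19 it was 0.57, with quartiles of 0.15 and 1.02. Of 461 other measured genes of chromosome 19, 109 were higher by 2-fold or more and 7 lower. Of 46 measured ZNF genes there, 3 were higher (ZNF580, ZNF787 and ZNF8) and 3 lower (ZNF146, ZNF93 and ZNF544). Of the 17 chromosome 19 ZNF bounds, 12 were lower and 5 higher, while those of the other chromosome 19 genes were 6 lower and 82 higher. ZNF genes elsewhere had a median of 0.09 over 48 genes, beside 0.06 over 5545 other genes not on chromosome 19. The contrast on chromosome 19 was noticed in these data and has no replicate, and the genes of a cluster are not independent. With the 70th percentile as floor 2 chromosome 19 ZNF genes were left above it on both arrays, with a median of 0.44, beside 0.49 over 229 other genes of the chromosome. Chromosome 19 ZNF genes also had lower signals, with medians of 24.3 on the K-ras array and 36.8 on the parental array, against 87.9 on the K-ras array and 53.1 on the parental array for the other genes of the chromosome, and 20.4% of their probe sets are _x_at against 12.7%. The part of signal level and of cross-hybridisation in the contrast was not tested.

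**Figure D3:**
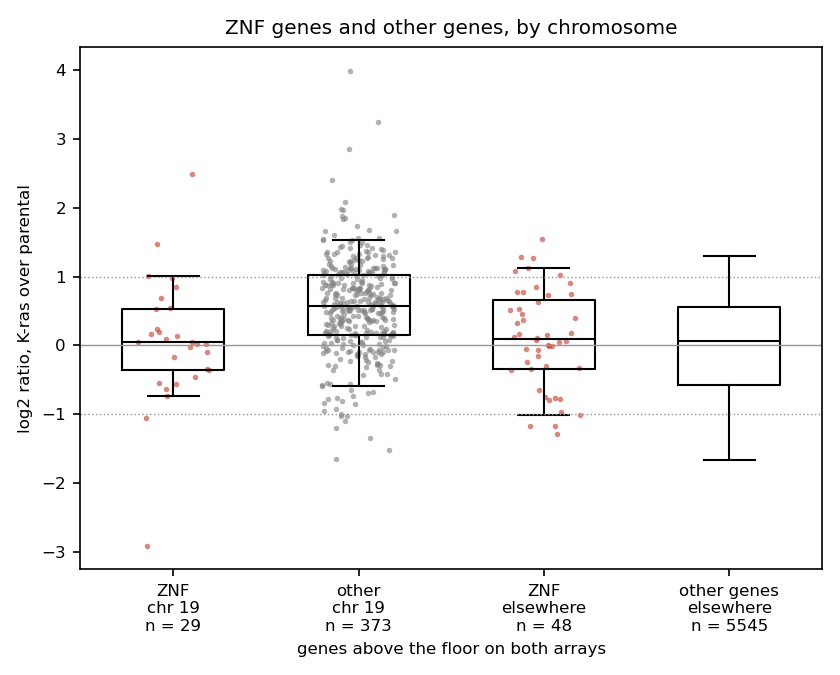
Log2 ratios, K-ras over parental, of genes whose signals both exceeded the floor, split into ZNF and other genes on chromosome 19 and elsewhere. Boxes give quartiles and median, whiskers the 5th to 95th percentile, and points are genes (not drawn for the last group). The box of other chromosome 19 genes lies above 0, with a median of 0.57, while the medians of the other groups are between 0.05 and 0.09.

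Along chromosome 19 the array ZNF genes were split into neighbour groups wherever the starts of successive ones lay more than 1 Mb apart. A bound takes its direction from the array on which the gene passed the floor. Counts that include bounds therefore do not establish a change of direction between groups. In the group from ZNF14 to ZNF254 only 5 of 14 genes were measured, and all 5 were bounds on the lower side, ZNF93, ZNF85 (29.5 in the K-ras line and 87.4 in the parental line), ZNF430, ZNF253 and ZNF91. Except ZNF91, they rest on _x_at probe sets of close paralogs and are uncertain. In the group from ZNF175 to ZNF331, 9 of 11 measured genes had ratios below 1, most of them bounds, and none passed 2-fold. Over the 4 genes of this group above the floor on both arrays the median log2 ratio was 0.004. Of these, ZNF160 and ZNF331 were above 0 and ZNF611 and ZNF665 below. Of the 9, ZNF611 was at a log2 ratio of -0.018, ZNF175 was a bound at -0.024 and ZNF813 a bound at -2.7e-05. Over all measured genes 55.1% had ratios above 1. The 2 other measured genes lying in that stretch had ratios above 1, as did the 1 in the stretch from ZNF14 to ZNF254. In the group from ZNF580 to ZNF446 at the end of the chromosome, 16 of 21 measured genes (76.2%) had ratios above 1, against 55.1% of all measured genes, 4 of the 5 other measured genes in that stretch and 81.2% of the 373 other chromosome 19 genes above the floor on both arrays. These ZNF genes had a median log2 ratio of 0.14 over 17 above the floor on both arrays. That group holds ZNF580, ZNF787, ZNF419, ZNF8 and ZNF587 on the higher side and ZNF544 on the lower. The near-identical ZNF587 and ZNF587B, both on _x_at probe sets, had log2 ratios of 0.98 and -0.36 and are uncertain.

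**Figure D4:**
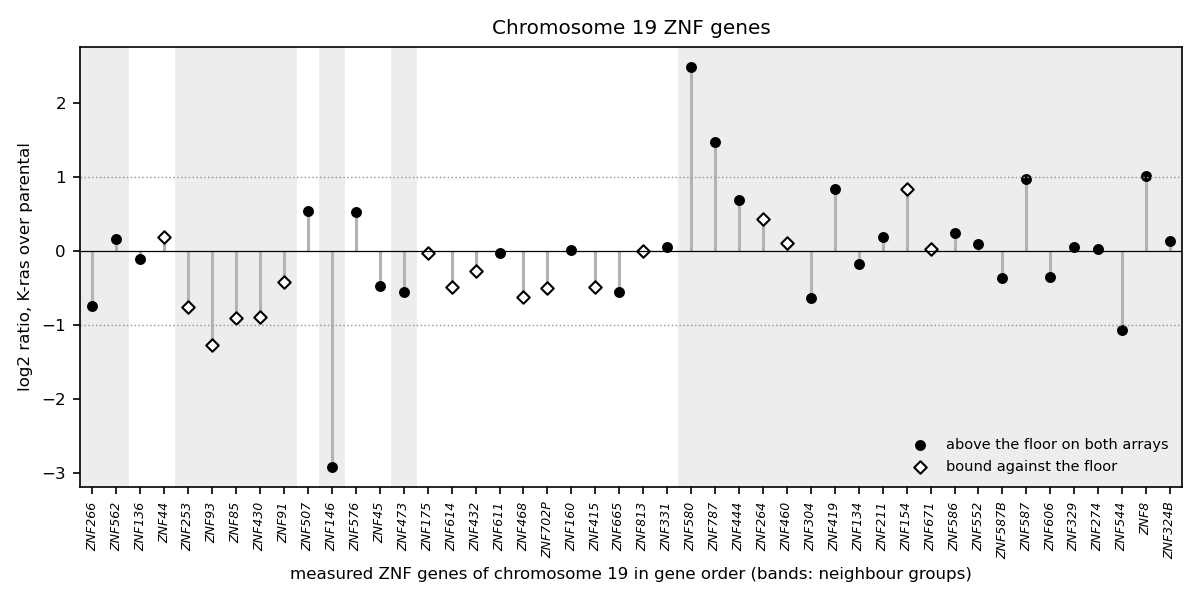
Log2 ratios, K-ras over parental, of the 46 measured ZNF genes of chromosome 19 in gene order, with shading alternating between neighbour groups. Filled circles are above the floor on both arrays and open diamonds are bounds. Log2 ratios are mostly below 0 from ZNF253 to ZNF813, where many are bounds, and mostly above 0 from ZNF580 onwards.

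Chromosome 16 held 18 ZNF genes, of which 11 were measured. All 7 of its bounds were on the higher side and no gene passed 2-fold. Of 360 other measured genes of the chromosome 48 were bounds on the higher side and 12 on the lower, and 47 were higher by 2-fold and 19 lower. In the neighbour group from ZNF771 to ZNF267, 6 of 8 genes were measured and all 6 had ratios above 1. Only 2 of them were above the floor on both arrays, and a bound takes its direction from the array that passed the floor. ZNF629 and ZNF747 had log2 ratios of 0.77 and 0.40, and ZNF771, ZNF646, ZNF688 and ZNF764 were bounds of 0.83, 0.75, 0.75 and 0.36. Of 24 other measured genes lying between them, 20 also had ratios above 1, with a median of 0.25 over the 17 above the floor on both arrays.

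Genomic span was set beside the log2 ratio. Pearson's r with the log10 span was -0.12 over 77 ZNF genes (Spearman's rho -0.03) and -0.20 over 5918 other genes (rho -0.22). These are values across genes of the same arrays, and their difference was not tested. The median in ZNF genes spanning under 10000 bp was 0.33 over 15 genes, against 0.35 over 1282 other genes of that size. From 10000 to 30000 bp it was 0.05 over 38 ZNF genes, against 0.20 over 1829. From 30000 to 100000 bp it was 0.03 over 21 ZNF genes, against -0.09 over 1901. Above that it was 0.08 over 3 ZNF genes, against -0.12 over 906. The ZNF median was under that of the other genes in the shorter classes and over it in the longer ones. The gap under 10000 bp was very small, however, and the longest class held only 3 ZNF genes. These gaps were not tested, and no trend is drawn from them.

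A list of genes through which KRAB proteins act had more members lower than higher in the K-ras line. Many of the listed genes are general chromatin factors, so the count is not particular to KRAB repression. Of 33 listed corepressor genes 26 were on the array and 23 measured. At least 2-fold lower were 6 and at least 2-fold higher none, against the backgrounds of 14.4% and 9.97%. Their median log2 ratio was -0.69 over the 20 with both signals above the floor, 7 of them above 0 and 13 below, and 17 of the 23 were under 2-fold. The lower genes were the heterochromatin proteins CBX3 (115 in the K-ras line, 863 in the parental line, 7.49-fold) and CBX1 (2.75-fold), the deacetylases HDAC1 (2.87-fold) and HDAC2 (2.64-fold), the remodeller CHD4 (2.16-fold) and MORC3 (at least 2.55-fold). TRIM28, the corepressor bound by KRAB domains, had signals of 1370 in the K-ras line and 1325 in the parental line, a log2 ratio of 0.05. SETDB1, the methyltransferase it recruits, had 68.0 in the K-ras line and 61.1 in the parental line (0.15). On the higher side, under 2-fold, were the remodeller CHD3 (0.81) and the NuRD subunits MTA1 (0.74) and MBD3 (0.53).

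Of the related families named by symbol, ZBTB genes had 1 higher and 2 lower of 14 measured, with ZBTB7A at a log2 ratio of 1.11, ZBTB11 at least 3.44-fold lower and ZBTB38 at -1.11. KLF genes had 4 higher and 1 lower of 9 measured, with KLF5 4.38-fold and KLF4 4.27-fold higher. No ZSCAN gene of 4 measured passed 2-fold, ZKSCAN had 1 lower of 3 measured and ZFP 1 higher of 4. The higher ZFP gene was ZFP36, at a log2 ratio of 1.85. ZFP36, ZFP36L1 and ZFP36L2 are mRNA decay genes placed here by symbol alone. Over all measured genes the backgrounds were 9.97% higher and 14.4% lower. The differences of these families from the ZNF genes were not tested.

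Across the arrays the labelled cell type was checked on 10 duct markers. Of these, 9 were measured, with KRT7, KRT8, KRT18, KRT19, EPCAM, CDH1 and SOX9 above the floor on both arrays, CA2 on the parental array alone and MUC1 on the K-ras array alone, and CFTR was below it on both. Among 16 markers of fibroblasts, endothelium, blood, acinar and islet cells, COL1A1 and DCN were above the floor on both arrays, at signals of 59.1 to 131, and COL1A2, PECAM1, CD3E and CELA3A on the K-ras array alone, at 51.4 to 80.6. PRSS1 had no probe set of its own. LUM, INS and GCG were at most 4.20 on either array. The duct markers differed between the lines. KRT19, EPCAM and SOX9 had log2 ratios of -1.46, -1.06 and -1.03 and CA2 a bound at -2.51, while KRT8 was at 0.88 and KRT18 at 0.38, and their part in the ZNF differences was not tested. The summed signal of the duct markers was 17036 on the K-ras array and 18516 on the parental array, and that of the 5 fibroblast markers was 266 on the K-ras array and 216 on the parental array. The 3′ to 5′ signal ratio of the GAPDH control probe sets was 0.89 on the K-ras array and 0.82 on the parental array, and that of ACTB 1.10 on the K-ras array and 1.28 on the parental array.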

How the data were processed

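RNA of 1 K-ras and 1 parental H6c7 culture was measured on U133A arrays, with cRNA made by standard Affymetrix procedures per the labels. The deposited values are 1 linear intensity per probe set and array for 22283 probe sets, 68 of them controls. For the software that made them, the sources used here give nothing. As deposited, the trimmed mean (2% off each end) was 150.06 on both arrays, so the authors' values were taken as already scaled and were only rescaled to that mean. The number of arrays limits the precision.

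Genes were named from the array annotation, and all 235 ZNF genes were matched by gene number to GRCh38.p14. A total of 15 probe sets with several symbols, one of them ZNF, were left out. Ratios are K-ras over parental, the threshold was 2-fold, and no test was possible with 1 array per group. Named genes are those past 2-fold above the floor on both arrays, the 8 largest bounds in each direction, the 10 highest signals, genes with 3 or more measured probe sets, and 40 members with known roles; ZNF587, ZNF747 and other genes outside these groups are named where a count or a paragraph needs them, and were picked with their values in view. Members, lists and settings were chosen with earlier results of these data known. The motifs and the neighbour groups were chosen after the data were seen. Protein features such as finger number and KRAB domains were not analysed here. Alternatives were other scalings, floors, probe set rules and a 3-fold threshold. The procedure was tested on simulated data, with changes of 3-fold or more placed in genes well above the floor on the parental array. Changes near 2-fold or close to the floor were not simulated, so the test does not bear on such calls. Exact Clopper-Pearson 95% intervals of the shares above the median, 34.9 to 47.9% on the K-ras array and 39.5 to 52.6% on the parental array, treat genes as independent, which paralogs are not. Figures were drawn with matplotlib 3.10.9. Loess used statsmodels 0.14.6 and intervals used scipy 1.17.1, under Python 3.11.15 with pandas 2.3.3 and numpy 2.4.6.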

Additional observations from a re-analysis of the deposited data

How the results depend on the processing

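No paired analysis was possible because each group has 1 array. The counts past 2-fold moved with the floor, over ZNF and over all genes. A floor at the 30th percentile gave 16 higher (9.14%, against 13.9% of all measured genes) and 29 lower (16.6% against 14.4%). One at the 70th gave 3 (6.82% against 9.04%) and 4 (9.09% against 12.7%). No floor gave 36 (15.3% against 20.3%) and 55 (23.4%, against 1797 of 11963 genes), and the floor as a pseudocount 5 (2.13% against 3.92%) and 5 (2.13%, against 837 of 11963). At 3-fold 1 was higher (0.81% against 2.40%) and 2 lower (1.63% against 6.24%). Scaled on 100 probe sets, the lower count was 4 of 121 measured ZNF genes (3.31%, against 11.1% of all measured genes). With the median over probe sets it was 6 of 123 (4.88% against 13.6%). Without _x_at and _s_at probe sets it was 4 of 80 (5% against 15.5%). The median log2 ratio of the ZNF genes was -0.01 to 0.26 over 11 alternatives, with 0.26 when scaled on 100 probe sets. The chromosome 19 ZNF median was 0.22 when scaled on 100 probe sets, 0.44 over 2 genes with the floor at the 70th percentile, -0.18 with no floor and -0.052 with the floor as a pseudocount. That of the other chromosome 19 genes was 0.75 when scaled on 100 probe sets, 0.49 at the 70th percentile, 0.66 with no floor and 0.33 with the pseudocount. The corepressor median was -0.50 when scaled on 100 probe sets and with the pseudocount and -0.41 with the median over probe sets, and 1 of its genes was higher when scaled on 100 probe sets, with no floor and with the median over probe sets. The share of ZNF genes above the 30th percentile was 63.8% on the K-ras array and 71.5% on the parental array, and above the 70th percentile 14.9% and 12.3%. None of the 19 genes past 2-fold changed direction under an alternative that gave it a value. ZNF580, ZNF185, ZNF146 and ZNF638 stayed past 2-fold under each of these, and ZNF580 and ZNF638 have no value without _x_at and _s_at probe sets. All alternatives reuse the same 2 arrays, so they are not repeat measurements and do not bear on replication. ZNF408, ZNF787 and ZNF8 had log2 ratios of 0.39, 0.33 and 0.21 with the 70th percentile as floor. The cause of the other changes was not tested.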
